A study of Sus scrofa with 6 samples.

Results

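The RNA splicing factor genes described here are the SRSF, HNRNP, SF3A and SF3B, SNRP, PRPF, U2AF and LSM families and CCDC84. They were taken from the porcine array by the gene symbols in its probe table. A probe set, the group of oligonucleotides that measures 1 transcript, was a member when its single symbol belonged to these families and its signal was above 50 on at least 3 of the 6 arrays. The symbols matched 98 probe sets, and 97 of them, of 63 genes, passed the filter. On the whole array 19196 probe sets passed it, and those with a single symbol covered 6322 genes. The probe set that did not pass was 1 of 5 for SRSF10, with signals between 7.15 and 12.6. Just inside the filter was a probe set of PRPF39, which was above 50 on 3 arrays with signals between 46.9 and 76.2. Of the 97 probe sets, 94 were above 50 on all 6 arrays, and 91 were above 100 on at least 3.

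The arrays compared preovulatory follicles of 3 multiparous Large White sows, a European breed, with those of 3 multiparous Chinese Taihu sows, which the labels call Chinese Erhualian. Every sow received 1000 IU PMSG, which makes follicles grow, and 500 IU hCG at 80 h after it, which starts ovulation. The sows were killed between 30 and 38 h after hCG, and each array held RNA of the follicles of 1 sow. Each breed came from its own farm, so breed and farm cannot be told apart.

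Splicing removes introns from the primary transcript and joins the exons. It is carried out by the spliceosome, which is built from small nuclear ribonucleoproteins (snRNPs), each made of a small nuclear RNA, a ring of Sm or LSm proteins and proteins of its own. SR proteins (SRSF genes) often promote the use of an exon, and heterogeneous nuclear ribonucleoproteins (HNRNP genes) often repress it, so that the balance between them shapes alternative splicing in most tissues.

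The deposited value is a signal intensity on a linear scale, brought to a common level on all arrays, and the level of 1 probe set cannot be set against that of another. A whole follicle holds several cell types, and fewer cells of a type cannot be told apart from less RNA per cell. The arrays were unlike in the markers of these cells. Over 5 genes listed for the theca, the steroid-making outer layer, the geometric mean signal was 57.9 in Taihu sow 1 against 792 to 6394 elsewhere. STAR (27.0) and INSL3 (48.5) were below 50 in Taihu sow 1. All 5 were highest in Taihu sow 2. The list includes genes of steroid making, so it does not measure the amount of theca alone. Over 8 genes listed for granulosa cells the geometric mean was 132 in Taihu sow 1 and 282 to 565 elsewhere, but this list was split. INHA was 446 in Taihu sow 1 against 6510 to 10684 elsewhere. In contrast, 2 of the 8 were highest in Taihu sow 1, INHBA (899 against 233 to 387) and CYP19A1 (119 against 88.4 to 117). All 9 measured surface epithelium genes were highest in Taihu sow 1 (geometric mean 2728 against 140 to 435), as were all 4 oviduct and cilium genes (3991 against 98.7 to 541). Of 7 leukocyte genes, 6 were highest in Large White sow 2 (861 against 240 to 347). The ratio of the actin 3′ to 5′ control signals was 2.66 in Taihu sow 2 and at most 2.13 in any other sow. For GAPDH it was 1.36 in Taihu sow 2, inside the range of 1.21 to 1.85 in the others. The part of these differences in the results below was not tested. Values without single sows are given for some results, and the lists of other splicing genes were not read with a sow left out.

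In the comparison of the breeds, most splicing factor genes lay close to equal signals. The median difference, Chinese Taihu minus Large White on the log2 scale, was -0.04 over the 97 probe sets (quartiles -0.19 and 0.12), beside 0.00 over all tested probe sets (quartiles -0.19 and 0.18). With only the brightest probe set of each gene it was -0.09. Positive differences were found for 44 probe sets and negative ones for 53. With limma, 0 of the 97 passed an adjusted p of 0.05, beside 4 of all 19196 (0.0208%). At an unadjusted limma p of 0.05, 1 probe set (CCDC84) was higher in Chinese Taihu, beside 1.56% of all tested probe sets. CCDC84 was listed by its own name with earlier results of these data known, and no probe set of the families was higher. At the same threshold 3 (HNRNPK, LSM2 and SNRPG) were lower, beside 2.30%.

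Large differences were few. Only 5 of the 97 reached 0.5 in size on the log2 scale (5.15%, beside 13.8% of all tested probe sets), and CCDC84 alone reached 1. The 95% interval of the difference lay between -1 and 1 for 82 probe sets (84.5%, beside 65.9%), so that for these a doubling or halving lay outside the interval. The median SD within a breed was 0.24 on the log2 scale, beside 0.30 for all tested probe sets. Over the 6 arrays, the highest signal of a splicing probe set was 1.61 times its lowest in the median, beside 1.75 times. The background was not matched by signal level, as 91 of the 97 but 15521 of 19196 tested probe sets were above 100 on 3 arrays. These values therefore do not show that the members were steadier than equally bright probe sets.

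**Figure D1:**
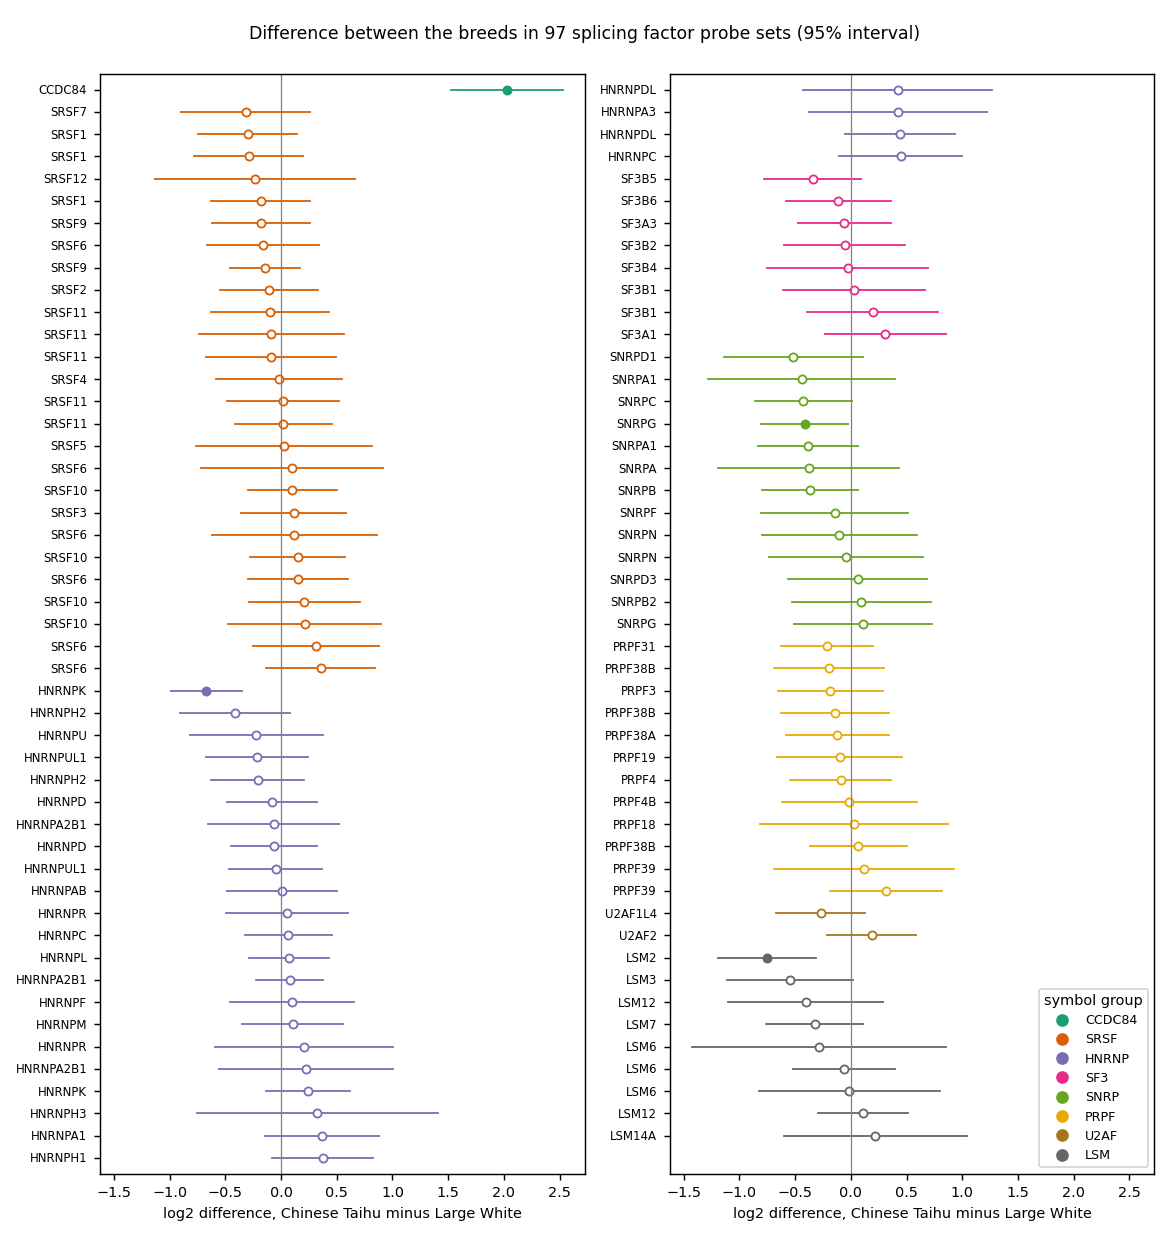
Difference between the breeds (x axis, log2, Chinese Taihu minus Large White) for each of the 97 splicing factor probe sets (y axis), with its limma 95% interval as a bar and the family as the colour; filled points have an unadjusted p of at most 0.05. The 4 filled points are CCDC84 at 2.03 and LSM2, HNRNPK and SNRPG at -0.75, -0.67 and -0.42.

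A second count asked whether the 3 signals of each breed overlapped. The Chinese Taihu signals all lay below the Large White signals for 14 of the 97 probe sets (14.4%), beside 5.12% of all tested probe sets. They all lay above for 2 probe sets, CCDC84 and 1 of SRSF6, beside 3.98%. The 14 belonged to SNRPA1, SNRPB, SNRPC, SNRPD1, SNRPG, LSM2, LSM7, HNRNPK, HNRNPH2 (both probe sets), SRSF1, SRSF9, PRPF31 and U2AF1L4. With a sow left out, 3 signals against 2 separate more easily, and the shares over all tested probe sets rose too. Without Taihu sow 1 the count below was 26, beside 9.38% of all tested probe sets. Without Taihu sow 2 the count below was 16, beside 14.1%, which was close to the share of the array. Without any other sow it was 16 to 18, beside 7.19% to 10.8%. The count above was 18 without Taihu sow 2, beside 11.5%. The count above was 13 without Large White sow 3 (beside 10.5%), 6 without Large White sow 1 (beside 9.47%) and 3 without any other sow (beside 5.87% to 8.36%).

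CCDC84, also known as CENATAC, is a protein tied to the minor spliceosome, which removes a small class of introns. It had the largest difference of the members. This rank says nothing about the families, because CCDC84 was listed by its own name, with earlier results of these data known. Its signals were 70.8, 55.3 and 58.8 in the Large White sows and 318, 225 and 218 in the Chinese Taihu sows. All Chinese Taihu signals lay well above all Large White signals, and those of the Large White sows lay close to the filter level of 50. The difference of 2.03 (SE 0.21, 95% interval 1.53 to 2.53) had a limma adjusted p of 0.0864. Without Taihu sow 1, whose markers stood apart and whose signal was the highest, it was 1.85, with an adjusted limma p of 0.202. Over all alternatives the adjusted p ran from 0.0395 to 0.636, and it was below 0.05 only with array weights, which give less weight to arrays that deviate more.

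Most probe sets for proteins of the snRNPs had lower mean signals in Chinese Taihu. Of the 13 SNRP probe sets, of 10 genes, 10 had a negative difference (all tested probe sets were negative in 49.7%), with a median of -0.37 and a range of -0.52 to 0.11. The signals did not overlap between the breeds in 5 of the 13, all lower in Chinese Taihu, beside 5.12% of all tested probe sets. This median depended on single sows, as it was -0.08 without Large White sow 1, -0.16 without Taihu sow 3, and -0.41 without Large White sow 3.

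SNRPG, SNRPD1 and SNRPB encode Sm proteins, which form the ring around the U1, U2, U4 and U5 RNAs. The brighter probe set of SNRPG gave 2855, 2237 and 2415 in the Large White sows and 1842, 1846 and 1911 in the Chinese Taihu sows. The breeds did not overlap, and the Chinese Taihu signals were within a narrow band, with a mean of 1866 ± 38.7 (SD, n = 3) against 2502 ± 318 (SD, n = 3). Its difference was -0.42 (SE 0.16, 95% interval -0.81 to -0.02; limma adjusted p 0.993). The weaker probe set of SNRPG had a difference of 0.11 (SE 0.26), with the breeds overlapping.

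For SNRPD1 the signals were 1946, 1210 and 1227 against 1138, 1032 and 842, with a difference of -0.52 (SE 0.26). Large White sow 1 stood far above the other 5 sows, which spanned 842 to 1227. For SNRPB the signals were 2262, 1907 and 1902 against 1508, 1786 and 1420, a difference of -0.37 (SE 0.18), again with Large White sow 1 on top. SNRPD3, another Sm protein, did not follow this order, with signals of 4317, 3315 and 3337 against 3331, 5402 and 3014 and a difference of 0.06 (SE 0.26). Its highest signal was in Taihu sow 2. For SNRPF, also an Sm protein, the breeds overlapped, with a difference of -0.14 (SE 0.27).

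Of the proteins particular to 1 snRNP, SNRPC, SNRPA and both probe sets of SNRPA1 had negative differences and SNRPB2 did not. SNRPC, of the U1 snRNP, had signals of 2693, 2434 and 2111 in the Large White sows and 1659, 2063 and 1668 in the Chinese Taihu sows, without overlap, and a difference of -0.43 (SE 0.18; limma adjusted p 0.993). SNRPA1, of the U2 snRNP, had signals of 702, 561 and 585 against 511, 456 and 446, again without overlap, and a difference of -0.38 (SE 0.19), with -0.44 (SE 0.35) at its weaker probe set. SNRPA, of the U1 snRNP, had a difference of -0.38 (SE 0.34), and SNRPB2, of the U2 snRNP, 0.09 (SE 0.26). The probe sets of SNRPN, an Sm protein gene known for its imprinting, had differences of -0.10 and -0.04.

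LSm proteins 2 to 8 form the ring of the U6 RNA, and LSM2, LSM3, LSM6 and LSM7 were on the list. LSM2 gave 1623, 1662 and 1710 in the Large White sows and 942, 882 and 1157 in the Chinese Taihu sows. Every Chinese Taihu signal lay below every Large White signal, and the 3 Large White sows agreed closely. The mean was 994 ± 144 (SD, n = 3) against 1665 ± 44.0 (SD, n = 3), or 0.597 times. The difference of -0.75 (SE 0.18, 95% interval -1.19 to -0.32) had a limma adjusted p of 0.993, and it was between -0.87 and -0.67 with each sow left out in turn.

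LSM3 gave 1815, 1155 and 1586 against 1161, 1026 and 898, a difference of -0.55 (SE 0.23), with Taihu sow 1 just above Large White sow 2. LSM7 gave 710, 667 and 606 against 572, 532 and 479, without overlap, a difference of -0.33 (SE 0.18). The 3 probe sets of LSM6 had differences of -0.29 (SE 0.47), -0.06 (SE 0.19) and -0.01 (SE 0.34). All 3 were highest in Taihu sow 1, the brightest with 566 there against 252 to 360 in the other sows. Over the 9 LSM probe sets the median was -0.29, with 7 negative. It was 0.06 without Taihu sow 2, -0.15 without Large White sow 3 and -0.16 without Large White sow 1. The LSM list also held LSM12 and LSM14A, which are not known as parts of the spliceosome. LSM14A, a protein of processing bodies, had a difference of 0.22 (SE 0.34).

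**Figure D2:**
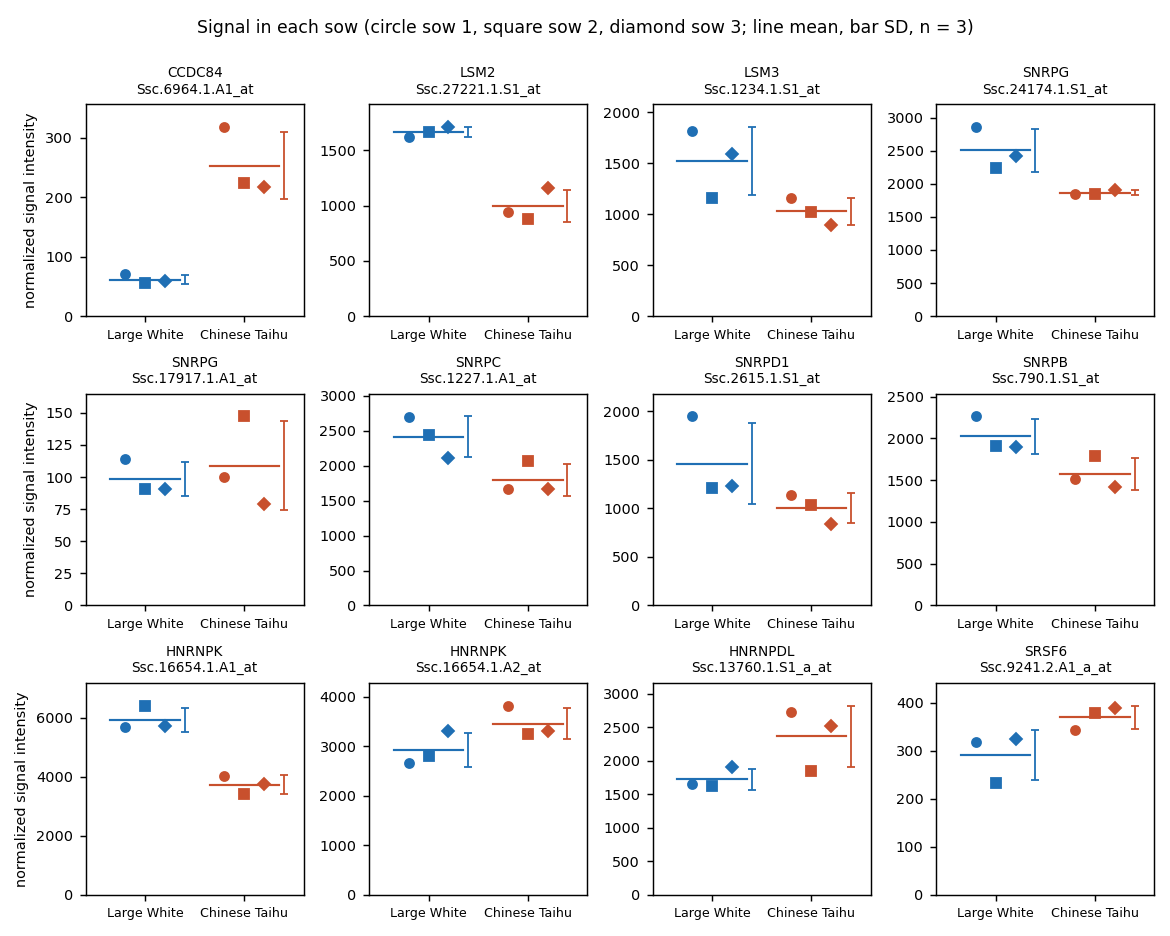
Signal intensity (y axis, linear, from 0) of 12 probe sets in the 3 Large White and 3 Chinese Taihu sows (x axis); circle, square and diamond are sows 1, 2 and 3 of a breed, the line is the mean and the bar the SD. The breeds do not overlap for CCDC84, LSM2 and the first HNRNPK probe set, while the second HNRNPK probe set and LSM3 overlap.

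The factors that recognise the intron's end and its branch site gave differences of both signs. U2AF2, the large subunit of the factor that binds the polypyrimidine tract, gave 144, 139 and 134 in the Large White sows and 157, 183 and 137 in the Chinese Taihu sows, a difference of 0.19 (SE 0.16), with the breeds overlapping. U2AF1L4, related to the small subunit, gave 429, 410 and 417 against 381, 334 and 329, a difference of -0.27 (SE 0.17), with no overlap. The 8 SF3 probe sets, whose proteins are U2 snRNP components that bind near the branch site, had a median of -0.04. Of these, 3 were positive and 5 negative, and the breeds overlapped in all 8. Over all tested probe sets the breeds did not overlap in 3.98% (Chinese Taihu higher) and 5.12% (lower). Without Taihu sow 2 the SF3 median was 0.09, with 6 positive and 2 negative, and without Taihu sow 1 it was -0.10. SF3B5 gave 3750, 3571 and 2778 against 2815, 2781 and 2324, a difference of -0.34 (SE 0.18). SF3A1 gave 825, 719 and 824 against 1191, 761 and 1029, a difference of 0.31 (SE 0.23), with Taihu sow 1 the highest. For SF3A3, 1 of the 2 brightest SF3 genes, the difference was -0.06 (SE 0.17), and signals lay between 1588 and 1997.

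Many PRPF genes, though not all, encode factors of the later stages, among them proteins of the U4/U6 and U5 snRNPs. The 12 PRPF probe sets had a median of -0.10, with 4 positive and 8 negative, and 8 of the 12 were lowest in Taihu sow 2. Without Taihu sow 2 the PRPF median was -0.0007, with 6 positive and 6 negative, and without Taihu sow 1 it was -0.20. PRPF31, a U4/U6 protein, gave 607, 556 and 575 against 514, 463 and 525, without overlap, a difference of -0.21 (SE 0.17). PRPF19, an E3 ubiquitin ligase that activates the spliceosome, gave 1344, 1081 and 1160 against 1459, 957 and 984, a difference of -0.10 (SE 0.23). PRPF4B, a kinase that phosphorylates splicing factors, gave 1055, 1097 and 1097 against 1384, 776 and 1150. The Chinese Taihu sows straddled the narrow Large White range, and the difference was -0.01 (SE 0.25). The weak PRPF39 probe set at the filter had a difference of 0.32 (SE 0.21).

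The probe sets of the SR proteins were evenly divided, but the genes were not. Of 26 SRSF probe sets of 11 genes, 13 were positive and 13 negative, the median was 0.00, and no difference exceeded 0.36 in size. The median was 0.11 without Taihu sow 2 (15 positive, 11 negative) and -0.11 without Taihu sow 3 (11 positive, 15 negative). Some genes had many of the probe sets, with 6 for SRSF6 and 4, all positive (0.10 to 0.21), for SRSF10. At the brightest probe set of each gene, only SRSF3 (0.12), SRSF5 (0.03) and SRSF10 (0.21) were positive, and the other genes were negative. SRSF1, which also acts in export of mRNA, gave 1235, 1214 and 1331 against 1050, 885 and 1156 at its first probe set, without overlap, a difference of -0.30 (SE 0.18). The other two probe sets of SRSF1 gave -0.29 and -0.18, so all were lower in Chinese Taihu, but for these the breeds overlapped. SRSF9 gave 4135, 3812 and 3721 against 3548, 3685 and 3334, a difference of -0.14 (SE 0.13), without overlap but with a gap far smaller than the spread among the sows. SRSF2 gave 3237, 2568 and 2232 against 2401, 2508 and 2458, a difference of -0.11 (SE 0.18).

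The probe sets of SRSF6 did not point one way. Of its 6 probe sets, 5 were positive and 1 negative, between -0.16 and 0.36. The highest gave 319, 232 and 324 in the Large White sows and 342, 378 and 388 in the Chinese Taihu sows, without overlap, a difference of 0.36 (SE 0.20). SRSF5 was highest in Taihu sow 1 with 1052, against 493 to 730 in the other sows, and its difference of 0.03 (SE 0.33) was one of the least precise of the family.

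More heterogeneous nuclear ribonucleoprotein probe sets had higher than lower mean signals in Chinese Taihu. Of 26 HNRNP probe sets of 17 genes, 17 were positive and 9 negative, with a median of 0.07 and a range of -0.67 to 0.45. The 0.45 came from a weak probe set of HNRNPC, with signals of 67.7 to 134. The family median stayed between 0.02 and 0.20 under every alternative fit. For none of the 26 did all Chinese Taihu signals lie above the Large White signals, beside 3.98% of all tested probe sets. They all lay below for 3 of the 26, beside 5.12%. HNRNPDL, an AU-rich element binding protein, gave 1654, 1619 and 1903 against 2721, 1847 and 2523 at its brighter probe set. Taihu sow 2 lay inside the Large White range, and the difference was 0.44 (SE 0.20; limma adjusted p 0.993), with 0.42 (SE 0.35) at the other probe set. HNRNPH1 and HNRNPA1 had differences of 0.37 each, and HNRNPA3 0.42, none with separate groups. HNRNPH2, a close relative of HNRNPH1, was lower without overlap in both probe sets, one with 346, 421 and 442 against 311, 345 and 255, a difference of -0.41 (SE 0.20), and the other at -0.21 (SE 0.17).

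The brightest probe set of HNRNPA2B1, a nuclear RNA-binding protein, varied least within the breeds of the 26. It gave 4139, 4144 and 4596 against 4411, 4348 and 4819, a difference of 0.08 (SE 0.12). The other probe sets of the gene varied more, with differences of -0.07 (SE 0.24) and 0.22 (SE 0.32). HNRNPH3 was the least steady of the family, with 885, 1341 and 2036 against 2015, 968 and 2438, so that the sows of a breed differed by more than the breeds, and its difference was 0.33 (SE 0.45).

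HNRNPK, which binds C-rich RNA and DNA, gave opposite results at its 2 probe sets. The first gave 5668, 6404 and 5714 in the Large White sows and 4036, 3400 and 3743 in the Chinese Taihu sows, without overlap, with means of 5929 ± 412 and 3726 ± 318 (SD, n = 3 each), or 0.629 times. Its difference was -0.67 (SE 0.13, 95% interval -0.99 to -0.35; limma adjusted p 0.779), and it stayed between -0.73 and -0.61 with each sow left out. The second gave 2668, 2792 and 3303 against 3814, 3241 and 3308, overlapping, a difference of 0.24 (SE 0.16). The ratio of the first to the second was 2.12, 2.29 and 1.73 in the Large White sows and 1.06, 1.05 and 1.13 in the Chinese Taihu sows. This was a ratio of 2 probe sets within a sow and shows only that their differences were unequal. It is given without a test, because the pair was singled out by its values.

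Across the 6 arrays, the families did not share an order. The members' median deviation from each probe set's own median over the 6 arrays was -0.16 in Taihu sow 2 (log2) and between -0.03 and 0.06 in the other sows, and 33 of the 97 probe sets (34.0%) had their lowest signal in Taihu sow 2, beside 16.4% of all tested. The SNRP probe sets were highest in Large White sow 1 in 9 of 13, with a median deviation of 0.39 there, and lowest in Taihu sow 3 in 7 of 13. The HNRNP probe sets were highest in Taihu sow 3 in 12 of 26 and in Taihu sow 1 in 7, and lowest in Taihu sow 2 in 11. Of the 9 LSM probe sets, 4 were highest in Taihu sow 1 and 3 in Large White sow 1. Taihu sow 1, in which the epithelial and oviduct genes stood out, held the highest signal for 23 of the 97 probe sets (23.7%), beside 23.5% of all tested.

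The deviations of 2 arrays, correlated over the 97 probe sets, ran from -0.74 (Large White sow 1 and Taihu sow 3) to 0.32 (Large White sow 1 and Large White sow 2). Over all 19196 tested probe sets the same pairs gave -0.45 and -0.04. These are descriptions over probe sets that share arrays and a median, with no test.

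**Figure D3:**
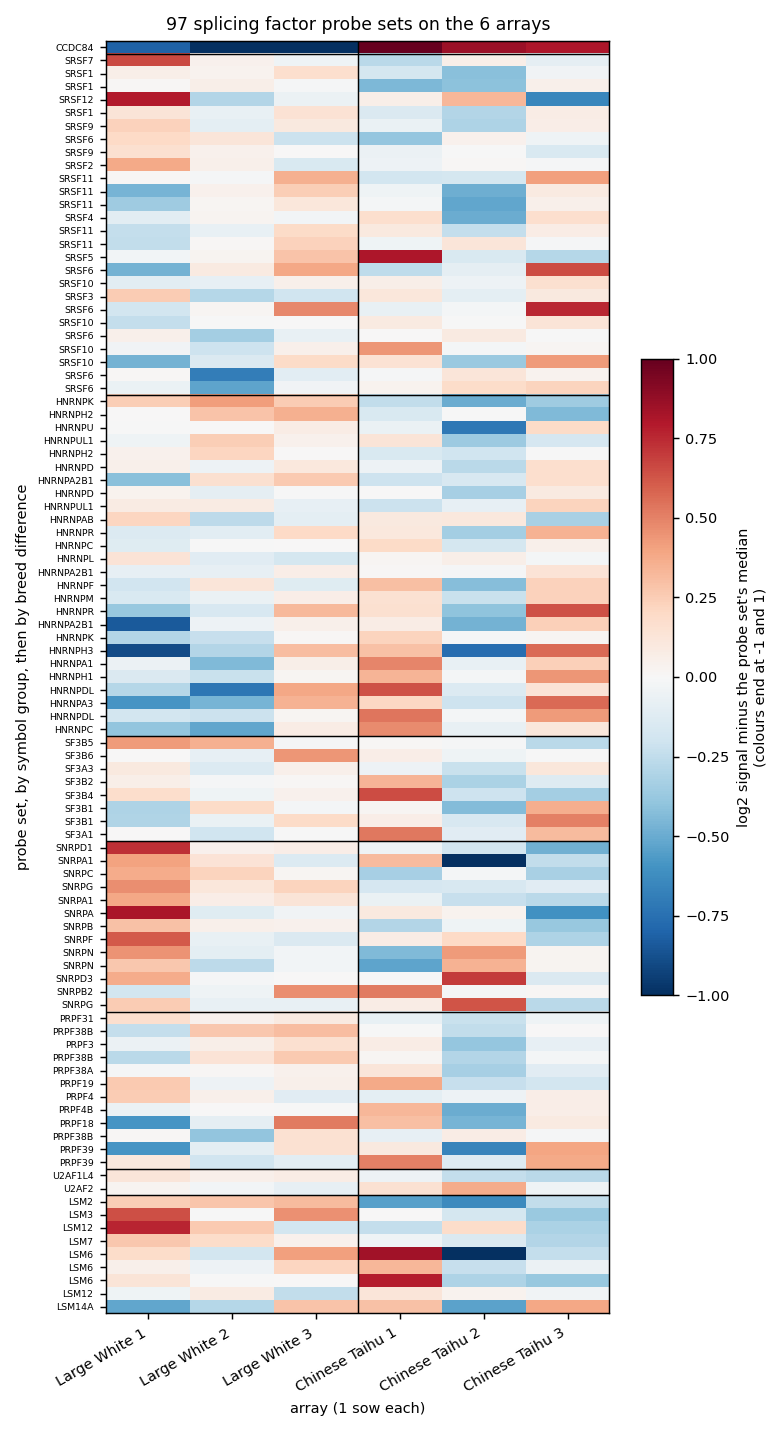
Deviation of each of the 97 splicing factor probe sets (rows, by family) on each of the 6 arrays (columns), as log2 signal minus the probe set's median over the arrays, with colours ending at -1 and 1. The column of Taihu sow 2 is low in most families, and the SNRP rows are high in Large White sow 1.

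Probe sets of the same gene could be compared for the 21 genes with at least 2 of them. In 14 (66.7%) all differences had the same sign, beside 1313 of 1957 genes of the whole array (67.1%). With exactly 2 probe sets it was 11 of 14 (78.6%), beside 995 of 1368 (72.7%). The median distance between the highest and the lowest difference of a gene was 0.17 on the log2 scale, beside 0.20 over all genes. HNRNPDL and HNRNPD had the closest probe sets, at 0.02 each. The widest were HNRNPK (0.92), SNRPG and SRSF6 (0.52 each), LSM12 (0.51) and HNRNPC (0.38). The weaker probe set of SNRPG gave 114, 90.7 and 90.5 against 100, 147 and 79.2, a difference of 0.11 (SE 0.26), where the brighter one had been lower in every Chinese Taihu sow. LSM12 gave -0.40 (SE 0.29) at the one and 0.11 (SE 0.17) at the other. HNRNPC gave 0.45 (SE 0.23) at its weak probe set, with signals of 67.7 to 134. At its brighter probe set, with signals of 2304 to 2978, it gave 0.06 (SE 0.16).

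**Figure D4:**
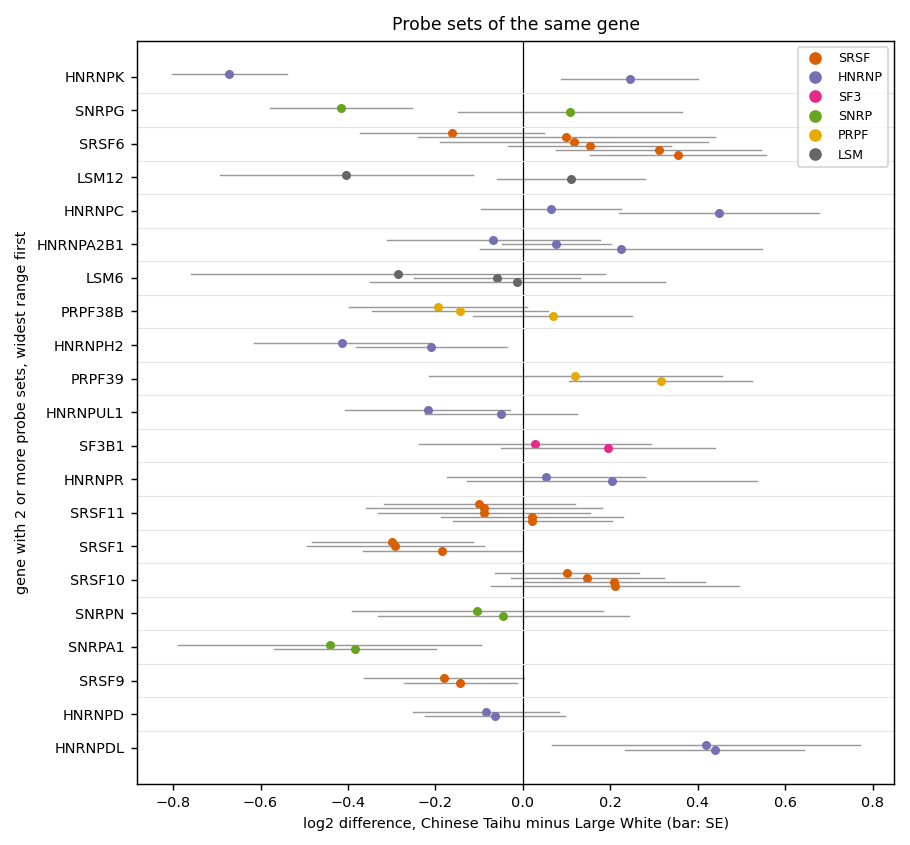
Differences between the breeds (x axis, log2, Chinese Taihu minus Large White) of the probe sets of 21 genes with at least 2 member probe sets (y axis, widest range on top), with bars of 1 SE. HNRNPK spans 0.92, from -0.67 to 0.24, and HNRNPDL and HNRNPD span 0.02.

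The other splicing genes were read from 5 lists, each gene by its brightest probe set. Of 140 genes, 89 were tested, 36 were positive and 53 negative, and the median was -0.06. At an unadjusted limma p of 0.05, 3 were lower and 0 higher, beside 2.30% and 1.56% of all tested probe sets, and 0 passed an adjusted p of 0.05. Of 28 helicases and catalytic-step proteins (11 positive, 17 negative, median -0.09), the 2 lower ones were TXNL4A and DDX39A. TXNL4A, a small U5 snRNP protein, gave 1803, 1854 and 1510 against 1033, 1195 and 1156, without overlap, a difference of -0.61 (SE 0.18). DDX39A, an RNA helicase of mRNA export, gave 999, 929 and 487 against 388, 432 and 355, with Large White sow 3 closest to the Chinese Taihu sows, a difference of -0.98 (SE 0.31).

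The exon junction complex and its partners, which mark joined exons and couple splicing to export, were negative in 12 of 13, with a median of -0.20. NXT1, a cofactor of the mRNA export receptor, was the lower one here, with 816, 956 and 745 against 603, 551 and 574 and a difference of -0.54 (SE 0.19), and ALYREF, an export adaptor, was at -0.36 (SE 0.17). Taihu sow 2 was again low, with a median deviation of -0.21 in this list, and Taihu sow 3 had -0.18. In each of the other lists Taihu sow 2 also had the lowest median deviation, between -0.24 and -0.17. Of 12 SR-related proteins and kinases, 8 were positive (median 0.08), with TRA2B at -0.30 (SE 0.18) and TNPO3, which imports SR proteins into the nucleus, at -0.27 (SE 0.19). The 24 other RNA-binding regulators had 11 positive and 13 negative (median -0.03), with MATR3 at 0.47 (SE 0.28) and RBFOX2 at -0.38 (SE 0.24). The 12 genes of the SMN complex and snRNP assembly had 5 positive and 7 negative (median -0.02), with PRMT5, which methylates Sm proteins, at -0.45 (SE 0.28) and STRAP at -0.22 (SE 0.20).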

How the data were processed

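Each array held RNA of the follicles of 1 sow, and 5 µg of total RNA was labelled. The authors made signal intensities from the scanned arrays with MAS5 (version 2.3.1 in the submitters' processing notes), brought every array to 1 target level and then applied dChip's invariant set normalization, so the deposited intensity is linear and does not show a change in total RNA. Precision is limited by 3 arrays a breed.

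A floor of 1 was put under the signals before log2. Of 23935 non-control probe sets, the 19196 above 50 on 3 or more arrays were fitted with limma 3.58.1 in R 4.3.3 (breed as the only term, variance trend, 2-sided, Benjamini-Hochberg over all of them). Gene symbols came from the array's probe table (10099 probe sets with 1 symbol, 198 with several, 13826 with none), and all 63 gene identifiers of the members were found in RefSeq (Sscrofa11.1), with 0 symbols that differed. Named were CCDC84, the 12 members with the smallest limma p, the 2 with the smallest p and the 2 brightest genes of each family, the 5 genes whose probe sets differed most, and 2 genes of each other list. Other genes given by their values (LSM6, LSM7, LSM14A, SRSF3, SRSF5, SRSF10, SNRPA, SNRPB2, SNRPF, SNRPN, HNRNPA1, HNRNPA3, HNRNPD, HNRNPH1, HNRNPH3 and the further probe sets of a named gene) were chosen after their values were seen. The members and lists were chosen with earlier results of these data known. The procedure was tested on simulated data. Counts and figures were made in Python 3.11.15 (pandas 2.3.3, matplotlib 3.10.9, numpy 2.4.6). Alternatives were quantile normalization, median scaling, a signal above 100, no filter, log2 of signal plus 16, a constant prior variance, array weights, a replicate block, the methods' t-test, the brightest probe set of each gene and each array left out. An exact permutation test of 3 against 3 cannot give a p below 0.1.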

Additional observations from a re-analysis of the deposited data

How the results depend on the processing

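No member passed an adjusted p of 0.05 under any alternative except array weights, where 1 did (CCDC84). The adjusted p of CCDC84 ran from 0.0395 with array weights to 0.636 without Large White sow 2 in limma and was 0.553 by the methods' t-test, and its difference from 1.78 to 2.13. HNRNPK and LSM2 kept an unadjusted p under 0.05 under every alternative, and SNRPG lost it with array weights, median scaling, quantile normalization, the replicate block and 5 of the 6 sows left out. At an unadjusted p of 0.05, higher probe sets numbered 4 with array weights and 1 to 4 with 1 sow left out (4 without Taihu sow 2, 2 without Large White sow 3), and lower ones 5 with array weights, 9 by the methods' t-test and 2 to 4 with 1 sow left out. The share of all tested probe sets at that p in either direction moved too, from 3.86% to 6.79% with array weights, 6.38% without Taihu sow 2, 4.78% without Large White sow 3 and 4.41% by the methods' t-test. The median of the members was between -0.10 and 0.050 with 1 sow left out, the highest without Taihu sow 2. Probe sets without overlap, an alternative chosen after seeing the data, were 5 higher and 12 lower with median scaling, 2 and 11 with quantile normalization, and 3 to 18 higher and 16 to 26 lower with 1 sow left out. The shares over all tested probe sets were 3.71% and 4.49% with median scaling, 3.99% and 4.71% with quantile normalization, and 5.87% to 11.5% and 7.19% to 14.1% with 1 sow left out. Genes whose probe sets shared a sign were 11 to 16 with 1 sow left out. Signs turned for the brighter HNRNPC probe set (-0.021 without Taihu sow 1, and up to 0.16), the weaker SNRPG probe set (-0.13 without Taihu sow 2, and up to 0.31) and 2 SRSF6 probe sets, which gave -0.17 and -0.15 without Taihu sow 3, -0.14 and -0.026 without Large White sow 1, and up to 0.29 and 0.30. Family medians ran from -0.41 to -0.08 for SNRP, from -0.39 to 0.06 for LSM and from 0.02 to 0.20 for HNRNP. They ran from -0.11 to 0.11 for SRSF, from -0.20 to -0.0007 for PRPF and from -0.10 to 0.09 for SF3. With the replicate number as a block, 1 probe set was higher and 2 lower, and the adjusted limma p of CCDC84 was 0.333. Same-numbered sows did not deviate together (correlations of -0.17, -0.14 and 0.27), so the numbers were not taken as pairs. The cause of these changes was not tested.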
